A study of Mus musculus with 9 samples.

Results

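The Notch ligands and receptors examined were 10 genes chosen by name among the 47729 genes measured. They were the Delta-like ligands Dll1, Dll3 and Dll4, the Jagged ligands Jag1 and Jag2, the receptors Notch1, Notch2, Notch3 and Notch4, and the glycosyltransferase Lfng (lunatic fringe). All 10 were found, and all 10 were among the 17951 genes that were tested because their mean level over the libraries was at least 0.1 FPKM. The mean of Dll4 was 0.209 FPKM over all libraries but 0.0741 in untreated cells, so it was tested only because of its level after treatment. FPKM is the number of fragments scaled to a length taken for each gene and to the number of mapped reads, so comparisons between genes rest on those lengths.

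RNA was sequenced from mouse embryonic stem cells (ESCs), pluripotent cells of the early embryo that were kept in medium with LIF and serum. Every library, the 0 h libraries included, came from a single engineered line that carries a transgene for a forced homodimer of E2A. In this construct a FLAG-tagged copy of E47, an isoform of the bHLH transcription factor E2A (gene symbol Tcf3), is joined by a flexible linker to another copy of E47, and it is expressed when doxycycline (dox) is added. The groups were untreated cells (0 h), cells given dox at 1 µg/ml for 18 h and cells given the same dose for 24 h, with 3 biological replicates at each time point and 9 libraries in all. The comparison asks which genes change once E2A homodimers are made. No dox-treated cells without the transgene were analysed here, so an effect of dox and an effect of the homodimer cannot be told apart. No untreated libraries at 18 h or 24 h were among the 9, so an effect of time in culture cannot be told apart from them either.

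Each library had between 22028363 and 26471569 reads on genes. Tcf3 was at 41.2, 37.7 and 38.5 FPKM in the 0 h libraries, at 116, 107 and 107 at 18 h and at 104, 93.6 and 108 at 24 h, and reads of the transgene could count on this gene. The ESC label was checked against 9 pluripotency markers, all of which were detected, with Pou5f1 between 226 and 433 FPKM, Sox2 between 79.7 and 98.9 and Nanog between 34.5 and 78.8.

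Notch signalling passes between cells that touch. A Delta-like or Jagged ligand on the surface of one cell binds a Notch receptor on its neighbour, the ligand is pulled into the sending cell, and the receptor is cut by ADAM proteases and then by gamma-secretase. The freed intracellular domain enters the nucleus, joins the DNA-binding protein RBPJ and a Mastermind co-activator, and switches on genes such as Hes1. In the developing nervous system cells with proneural bHLH factors make Delta-like ligands and so hold their neighbours in a progenitor state. Fringe enzymes add sugars to the receptor that alter which ligands it responds to. Dll3 differs from the other ligands in that it is largely held inside the cell and does not activate receptors on a neighbour.

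In the GENCODE M21 annotation of the GRCm38 mouse genome, Dll1 lay at chr17:15367354-15376872 on the minus strand and had 12 merged exons. Dll3 lay at chr7:28293553-28302238 on the minus strand with 7 exons, Dll4 at chr2:119325784-119335962 on the plus strand with 11, and Lfng at chr5:140607320-140615545 on the plus strand with 9. Jag1 lay at chr2:137081456-137116644 on the minus strand with 25 exons and Jag2 at chr12:112907819-112929776 on the minus strand with 24. The receptor genes are longer. Notch1 lay at chr2:26457903-26516663 on the minus strand with 40 exons, Notch2 at chr3:98013527-98150361 on the plus strand with 34, Notch3 at chr17:32120820-32166852 on the minus strand with 33, and Notch4 at chr17:34564268-34588503 on the plus strand with 31.

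Reads of overlapping genes could not always be told apart. Transcripts on the opposite strand overlapped Dll1 (A930024N18Rik, mean 0.0145 FPKM), Dll4 (Gm14207, 0.142), Notch1 (0610009E02Rik, 0.152, and Gm13568, 0.0103), Notch3 (Gm17276, 0.0249) and Notch4 (the pseudogene Gm20462, listed at 0). On the same strand lay Mir6941 in Jag2 (1.25 FPKM), Mir6996 in Notch1 (listed at 0), and Gm42819 and Gm42820 in Notch2 (0.00876 and 0.0624). No annotated gene overlapped Dll3, Jag1 or Lfng. The libraries were stranded, but how strand entered the counting is not given in the sources used here, and beside the 0.142 FPKM of Gm14207 the mean of Dll4 itself was 0.209 FPKM.

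The promoters of the genes that moved most are shown because E2A, like other bHLH factors, binds E-boxes, which have the letters CANNTG. RefSeq windows on GRCm38.p6 that run from 250 bases before to 50 bases after the annotated start were matched by symbol for all 10 genes, with 11 windows because Dll1 has 2 starts. The sequences below are written 5′ to 3′ on the strand of the gene, and capitals mark each CANNTG, a pattern that is the same on both strands. They are the window at the upstream start of Dll1 (chr17:15376883-15377182, minus strand), and those of Dll3 (chr7:28301736-28302035, minus strand), Lfng (chr5:140607091-140607390, plus strand) and Dll4 (chr2:119325534-119325833, plus strand, with no capitals because it held no E-box).
Dll1: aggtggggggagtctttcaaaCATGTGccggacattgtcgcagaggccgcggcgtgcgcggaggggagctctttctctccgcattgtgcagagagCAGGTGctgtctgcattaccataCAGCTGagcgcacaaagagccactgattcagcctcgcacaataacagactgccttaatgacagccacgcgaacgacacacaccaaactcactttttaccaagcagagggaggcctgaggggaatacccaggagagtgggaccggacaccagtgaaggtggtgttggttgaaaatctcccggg
Dll3: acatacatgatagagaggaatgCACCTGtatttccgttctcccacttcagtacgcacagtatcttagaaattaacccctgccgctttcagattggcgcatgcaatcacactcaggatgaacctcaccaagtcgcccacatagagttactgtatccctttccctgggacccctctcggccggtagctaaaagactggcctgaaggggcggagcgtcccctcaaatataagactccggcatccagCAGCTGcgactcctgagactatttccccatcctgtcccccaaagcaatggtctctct
Lfng: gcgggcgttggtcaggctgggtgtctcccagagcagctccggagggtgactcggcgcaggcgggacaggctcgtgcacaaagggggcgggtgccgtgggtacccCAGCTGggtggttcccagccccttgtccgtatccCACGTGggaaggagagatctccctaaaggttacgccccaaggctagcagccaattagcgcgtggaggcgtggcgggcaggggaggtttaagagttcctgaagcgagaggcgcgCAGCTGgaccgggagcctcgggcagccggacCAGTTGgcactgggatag
Dll4: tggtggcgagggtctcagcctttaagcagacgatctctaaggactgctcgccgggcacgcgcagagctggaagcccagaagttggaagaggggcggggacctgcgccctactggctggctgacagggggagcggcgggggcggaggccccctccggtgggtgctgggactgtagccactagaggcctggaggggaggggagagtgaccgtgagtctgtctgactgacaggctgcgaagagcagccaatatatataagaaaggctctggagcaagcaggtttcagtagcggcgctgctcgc

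Dll1 held 3 E-boxes in its upstream window, Dll3 held 2 and Lfng held 4. Positions are counted from the first base of the motif to the annotated start, which is base 1. In Dll1 they lay at -229 (CATGTG), -155 (CAGGTG) and -132 (CAGCTG), and in Dll3 at -228 (CACCTG, the reverse of CAGGTG) and -7 (CAGCTG). In Lfng they lay at -146 (CAGCTG), -112 (CACGTG), 2 (CAGCTG) and 33 (CAGTTG). The window at the other Dll1 start (chr17:15375774-15376073) held 1 E-box, CATTTG at -220. Among the other genes Jag1 held 1 (CAGCTG at -82) and Notch4 held 1 (CATTTG at -158), whereas the windows of Dll4, Jag2, Notch1, Notch2 and Notch3 held none.

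An E-box alone is common. Of all 32851 RefSeq windows of 300 bases, 72.3% held at least 1, compared with 6 of the 11 windows here, and the median window held 1. The letters CAGGTG on either strand were found in 20.2% of all windows and here in Dll1 and Dll3. CAGCTG, which is its own reverse, was found in 16.3% of all windows and here in Dll1, Dll3, Jag1 and Lfng. Both of these lie within CANNTG and are counted in it. The core letters of the RBPJ motif, TGGGAA on either strand, were found in 25.6% of all windows and, of the 10 genes, in Lfng alone, at -135 and at -108, the latter overlapping the E-box at -112. These matches describe letters in a short window and do not show binding. The annotated start lies 12841 bases inside the gene as GENCODE draws it for Notch1, 453 for Dll3 and 281 for Jag2, so the outermost starts of these 3 genes were not searched.

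**Figure D1:**
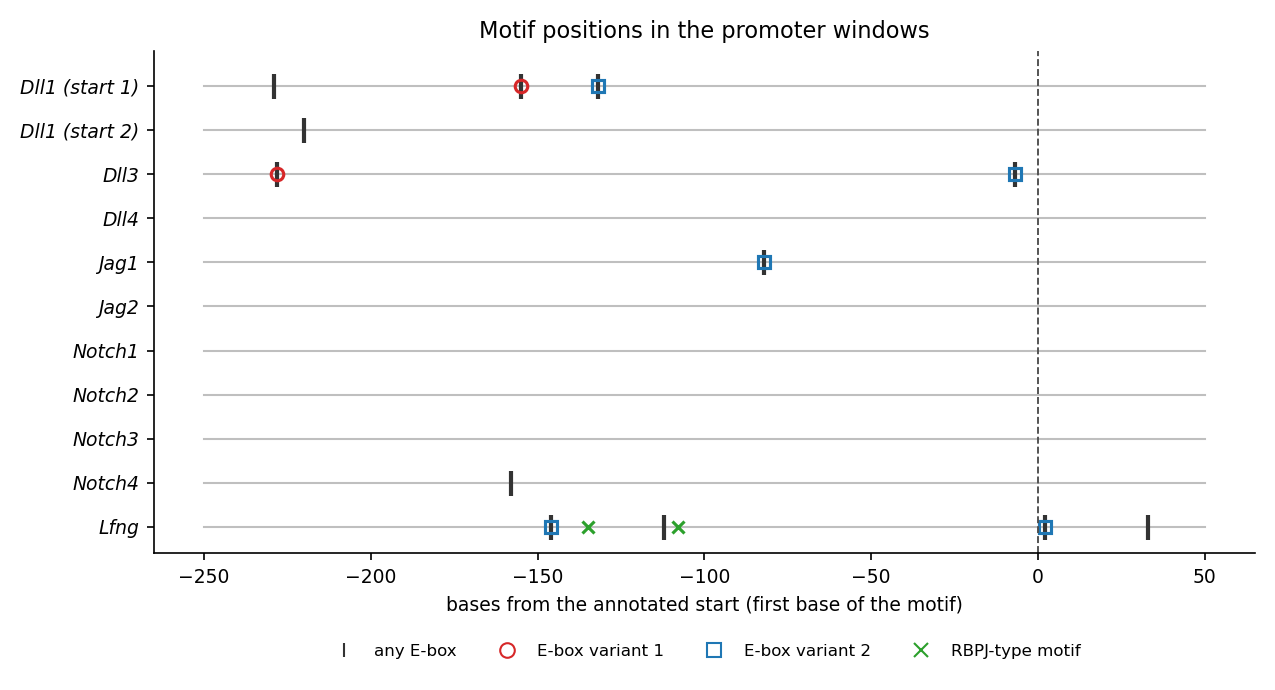
Motif positions in the promoter windows of the 10 genes, with bases from the annotated start on the horizontal axis and 1 line per window. Black bars are E-boxes, red circles the CAGGTG type, blue squares the CAGCTG type and green crosses the RBPJ-type motif; the windows of Dll1, Dll3 and Lfng hold most of the marks and 5 windows hold none.

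After induction of E2A homodimers Dll1, Dll3, Notch2 and Lfng were higher and Jag2 lower at both times, and Dll4 and Notch1 were higher at 24 h. At 18 h compared with 0 h, 4 of the 10 genes rose (Dll1, Dll3, Notch2 and Lfng) and 1 fell (Jag2). At 24 h compared with 0 h, 6 rose (Dll1, Dll3, Dll4, Notch1, Notch2 and Lfng) and 1 fell (Jag2). Of these, Dll4 reached the minimum level for testing only through the libraries with dox. Rose and fell are used for an adjusted p of at most 0.05 in limma, fitted to log2(FPKM+0.1) over all 17951 genes with Benjamini–Hochberg adjustment. Of all genes tested, 4.27% rose and 3.72% fell at 18 h, and 6.52% rose and 5.11% fell at 24 h. The replicate numbers pair the libraries, and with the replicate as a block 6 of the 10 rose and 2 fell at 18 h, and 7 rose and 1 fell at 24 h. In the blocked fit 10.8% of all genes rose and 10.7% fell at 18 h, and 13.6% rose and 12.5% fell at 24 h. When the fit held only the libraries of the comparison itself, 4 rose (Dll1, Dll3, Notch2 and Lfng) and 0 fell in limma at each time, when 2.21% of all genes rose and 1.80% fell at 18 h, and 3.56% rose and 2.79% fell at 24 h.

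Upregulated and downregulated are used where the log2 fold-change was also at least 1 in size, the minimum fold-change of 2 in the study's methods. The study also uses a larger threshold, a log2 fold-change of 2, which none of the 10 genes reached in limma with all 9 libraries (1.96 for Dll3 at 24 h was the highest). Dll3 at 24 h was at 2.15 in limma without 0 h replicate 1 and at 2.08 without 24 h replicate 3, and edgeR put Dll4 at 2.08 and DESeq2 at 2.10 at 24 h. By both thresholds 3 of the 10 genes were upregulated at 18 h (Dll1, Dll3 and Lfng), when 1.33% of all genes were upregulated and 0.724% downregulated, and 4 were upregulated at 24 h (the same 3 and Dll4), when 2.07% were upregulated and 0.836% downregulated. None of the 10 was downregulated at either time in limma, edgeR or DESeq2, and the count was also 0 at an unadjusted p under 0.05. The median log2 fold-change of the 10 genes was 0.47 at 18 h and 0.60 at 24 h, compared with -0.0030 and 0.0040 over all genes tested. Both comparisons share the 0 h libraries.

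The groups did not overlap for most of the genes. At 18 h every library was above every 0 h library for 6 of the 10 genes and below for 2 (Jag2 and Notch4), compared with 14.4% and 13.7% of all genes tested. At 24 h the numbers were 7 and 2, compared with 16.7% and 14.6%. Jag1 overlapped between all time points.

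**Figure D2:**
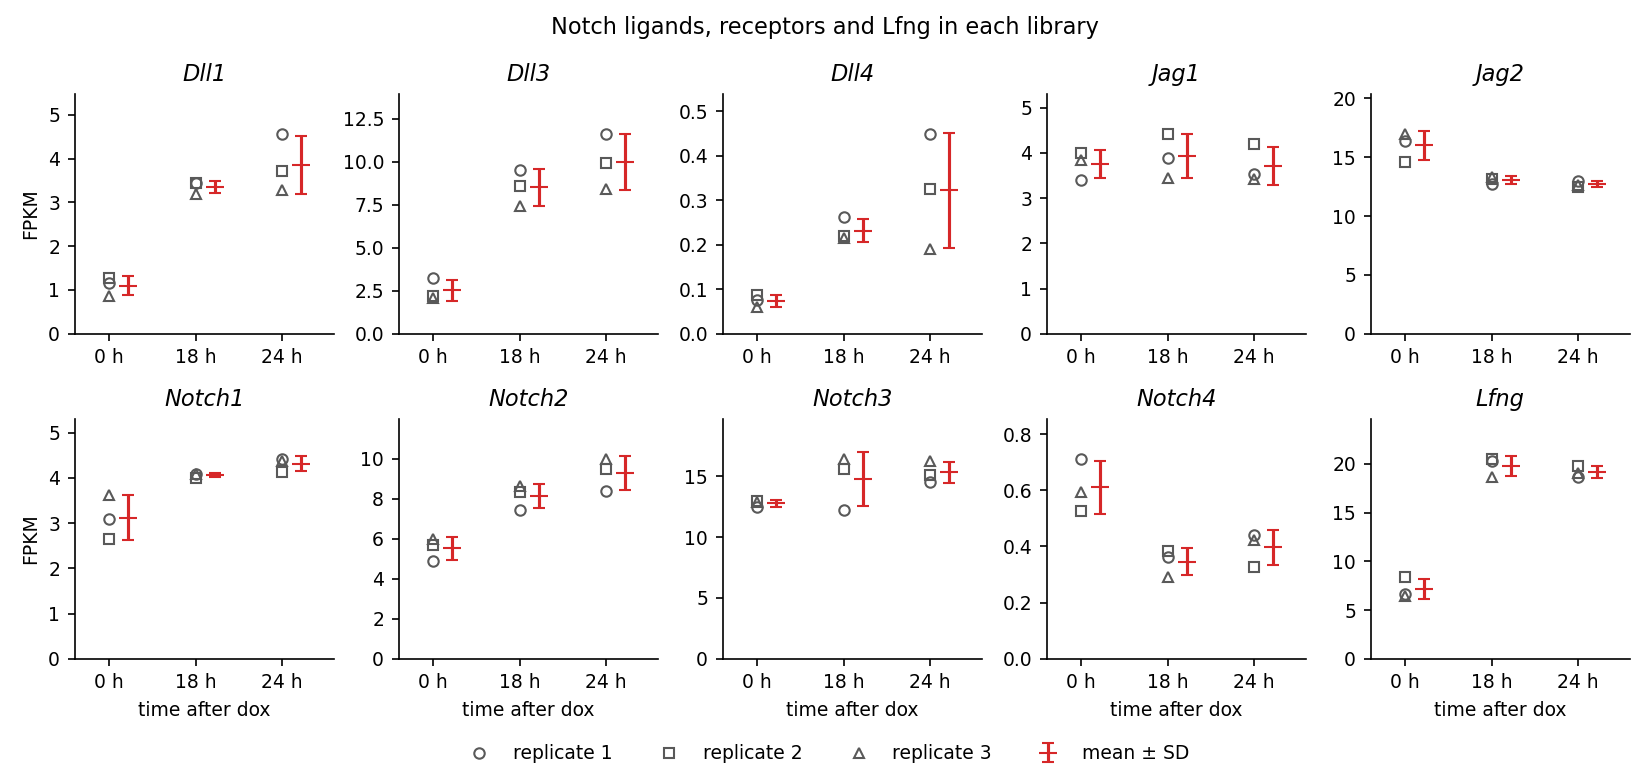
FPKM of the 10 genes (vertical axes, each from 0) at 0, 18 and 24 h after dox (horizontal axes), with 1 open symbol per library and the mean ± SD of 3 replicates in red. Dll1, Dll3, Dll4 and Lfng sit well above their 0 h libraries at 18 and 24 h, Jag2 and Notch4 sit below, and Jag1 stays within its 0 h range or close to it.

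**Figure D3:**
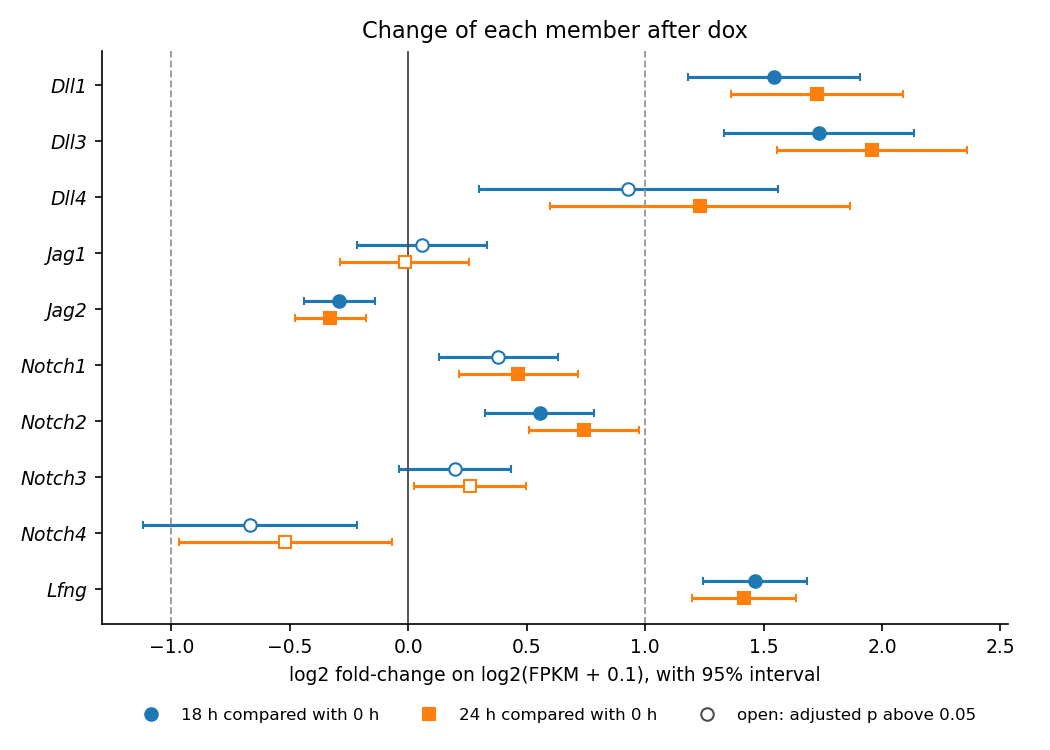
Log2 fold-change of each gene on log2(FPKM+0.1) at 18 h (circles) and 24 h (squares) compared with 0 h, with 95% intervals from limma that are not adjusted for the number of genes. Filled symbols have an adjusted p of 0.05 or less, the dashed lines mark a log2 fold-change of 1 in either direction, and the symbols of Dll1, Dll3 and Lfng lie beyond it at both times.

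Of the Delta-like ligands, Dll1 and Dll3 rose at both times and Dll4 at 24 h. Dll1, the main activating Delta ligand of the early neural tube, was at 1.15, 1.27 and 0.861 FPKM in the 0 h libraries, at 3.43, 3.43 and 3.18 at 18 h and at 4.57, 3.71 and 3.27 at 24 h. The 0 h libraries lay far below all others, and the 18 h and 24 h libraries overlapped. Dll1 was thus 3.06-fold higher at 18 h (log2 fold-change 1.54, SE 0.16, adjusted p = 0.00133) and 3.51-fold higher at 24 h (1.73, SE 0.16, adjusted p = 0.000593). Within replicate numbers the ratio of 24 h to 0 h was 3.97, 2.91 and 3.80.

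Dll3, the ligand that is held inside the cell, was the most abundant of the Delta-like ligands at each time. Its level was 3.24, 2.22 and 2.10 FPKM without dox, 9.53, 8.57 and 7.43 after 18 h and 11.6, 9.94 and 8.39 after 24 h. Replicate 1 was the highest at each time, and no library with dox came near the 0 h range. Dll3 was 3.38-fold higher at 18 h (log2 fold-change 1.74, SE 0.18, adjusted p = 0.00124) and 3.97-fold higher at 24 h (1.96, SE 0.18, adjusted p = 0.000480). Its share of the summed Delta-like FPKM was 68.0% ± 5.4 (SD, n = 3) without dox, 70.3% ± 1.7 after 18 h and 70.6% ± 0.66 after 24 h, so the make-up of this group moved by less than the spread at 0 h.

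Dll4, best known as the Delta ligand of blood vessels, was the lowest of the 10 genes at each time. Without dox its libraries held 7, 8 and 5 reads (0.0762, 0.0865 and 0.0597 FPKM), followed by 23, 21 and 20 reads at 18 h (0.261, 0.219 and 0.215 FPKM) and 44, 32 and 20 reads at 24 h (0.450, 0.326 and 0.191 FPKM). Every library with dox was above every 0 h library, but the 24 h libraries were spread widely among themselves. The ratio of mean FPKM was 3.12 at 18 h and 4.34 at 24 h. On the log2(FPKM+0.1) scale, which understates changes at this level, the log2 fold-change was 0.93 at 18 h (SE 0.28, adjusted p = 0.0753) and 1.23 at 24 h (SE 0.28, adjusted p = 0.0248).

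The calls on Dll4 depended on the fit, the pseudocount and single libraries. With the replicate block it passed at 18 h also (adjusted p = 0.0409). In edgeR, on the reads themselves, the log2 fold-change was 1.62 for 18 h (adjusted p = 0.0215) and 2.08 for 24 h (adjusted p = 0.00406). The call at 24 h was lost in limma without 0 h replicate 1, 0 h replicate 3, 24 h replicate 1 or 24 h replicate 2, with adjusted p between 0.0580 and 0.0843. With a pseudocount of 1 in place of 0.1 its log2 fold-change at 24 h was 0.29, which is below the minimum for upregulation.

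Of the Jagged ligands, Jag2 fell at both times. Jag2 was at 16.4, 14.6 and 17.0 FPKM in the 0 h libraries, at 12.7, 13.1 and 13.3 at 18 h and at 13.0, 12.5 and 12.7 at 24 h. All libraries with dox lay below all 0 h libraries. Jag2 fell by 0.29 on the log2 scale at 18 h (SE 0.067, adjusted p = 0.0319), to 0.815 of its 0 h mean, and fell by 0.33 at 24 h (SE 0.067, adjusted p = 0.0165), to 0.793 of it. The change was smaller than the study's minimum fold-change. It did not pass at 18 h without 0 h replicate 1, 0 h replicate 3 or any 1 of the 18 h replicates (adjusted p up to 0.0991), nor at 24 h without 0 h replicate 1, 24 h replicate 2 or 24 h replicate 3 (up to 0.0635), and it passed with the replicate block at both times.

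Jag1, the other Jagged ligand, was at 3.41, 4.004 and 3.84 FPKM without dox, 3.89, 4.43 and 3.45 after 18 h and 3.53, 4.20 and 3.42 after 24 h. The time points overlapped throughout. Its log2 fold-change was 0.06 at 18 h, with a 95% interval from -0.22 to 0.33 (adjusted p = 0.8005), and -0.02 at 24 h, with an interval from -0.29 to 0.26 (adjusted p = 0.950). Changes of the size seen in Dll1, Dll3 and Lfng lie outside these intervals. The CAGCTG in its promoter window is of the same letters as those in Dll1, Dll3 and Lfng. A link between these letters and the changes was not tested.

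The make-up of the ligand mRNA shifted. The summed level of the 3 Delta-like ligands was 4.47, 3.58 and 3.02 FPKM without dox, 13.2, 12.2 and 10.8 after 18 h and 16.7, 13.97 and 11.9 after 24 h. The summed level of the 2 Jagged ligands was 19.8, 18.6 and 20.9 FPKM without dox, 16.6, 17.6 and 16.8 after 18 h and 16.5, 16.7 and 16.1 after 24 h. Delta-like ligands made up 15.7% ± 2.9 (SD, n = 3) of the FPKM of the 5 ligands without dox, 41.5% ± 2.6 after 18 h and 46.1% ± 3.9 after 24 h. In 24 h replicate 1 the Delta-like sum was above the Jagged sum, and in the other 8 libraries it was below it. The sums and shares rest on the length behind each FPKM. For Jag2 this was shorter than its merged exons, as given below with the order of the levels. These are bulk libraries, so more cells with a transcript and more transcript per cell cannot be told apart here or below.

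**Figure D4:**
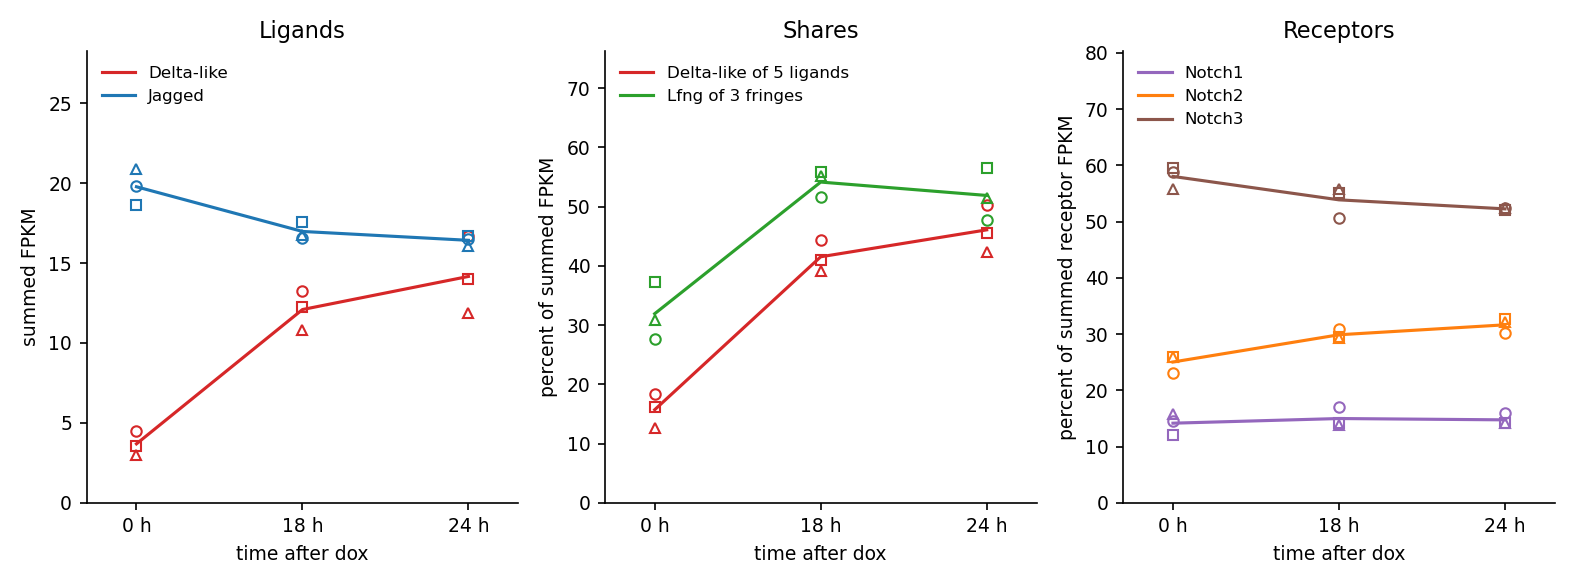
Summed FPKM of Delta-like and Jagged ligands (left), the percent of ligand FPKM from Delta-like ligands and of fringe FPKM from Lfng (middle), and the percent of receptor FPKM from Notch1, Notch2 and Notch3 (right) at 0, 18 and 24 h. Circles, squares and triangles are replicates 1, 2 and 3 and lines join the means; the Delta-like share goes from a mean of 15.7% at 0 h to 46.1% at 24 h.

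Among the receptors Notch2 changed most clearly. It was at 4.88, 5.67 and 5.99 FPKM in the 0 h libraries, at 7.45, 8.34 and 8.62 at 18 h and at 8.38, 9.46 and 9.999 at 24 h. Replicate 1 was the lowest at each time and the 0 h libraries lay below all others. Notch2 was 1.48-fold higher at 18 h (log2 fold-change 0.56, SE 0.10, adjusted p = 0.0143) and 1.68-fold higher at 24 h (0.74, SE 0.10, adjusted p = 0.00338). The ratio of 24 h to 0 h was 1.72, 1.67 and 1.67 within replicate numbers. The pass at 18 h was lost without 18 h replicate 2 (adjusted p = 0.0595) or 18 h replicate 3 (0.0635).

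Notch1, the receptor most often studied in neural progenitors, moved less. Its level was 3.08, 2.64 and 3.63 FPKM without dox, 4.09, 4.01 and 4.08 after 18 h and 4.43, 4.12 and 4.38 after 24 h. The spread at 0 h was wide compared with the later times, but no 0 h library reached them. The log2 fold-change was 0.38 at 18 h (SE 0.11, adjusted p = 0.0697) and 0.47 at 24 h (SE 0.11, adjusted p = 0.0304). With the replicate block Notch1 passed at 18 h (adjusted p = 0.0263), as it did in edgeR (0.0254). In the unblocked limma fit it passed at 18 h without 0 h replicate 3 (0.0293) and lost its pass at 24 h without 0 h replicate 1, 0 h replicate 2 or any 1 of the 24 h replicates (adjusted p up to 0.0999).

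Notch3 was the most abundant receptor, at 12.4, 13.0 and 12.9 FPKM without dox, 12.2, 15.6 and 16.4 after 18 h and 14.5, 15.1 and 16.3 after 24 h. The 18 h replicate 1 lay below all 0 h libraries, whereas the other 5 libraries with dox lay above them. The log2 fold-change was 0.20 at 18 h (SE 0.10, adjusted p = 0.272) and 0.26 at 24 h (SE 0.10, adjusted p = 0.1396), and neither passed. With the replicate block the value at 24 h passed (adjusted p = 0.0430). Without 18 h replicate 1 the log2 fold-change at 18 h was 0.33 and it passed (adjusted p = 0.0372). Without 18 h replicate 3 it was 0.11 and did not pass (adjusted p = 0.603).

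Notch4, a receptor of blood vessels, was the least abundant receptor. It was at 0.713, 0.527 and 0.593 FPKM in the 0 h libraries (137, 102 and 104 reads), at 0.363, 0.383 and 0.292 at 18 h (67, 77 and 57 reads) and at 0.439, 0.326 and 0.424 at 24 h (90, 67 and 93 reads). The groups with and without dox did not overlap. The log2 fold-change was -0.67 at 18 h (SE 0.20, adjusted p = 0.0729) and -0.52 at 24 h (SE 0.20, adjusted p = 0.128) and did not pass in limma. It passed at 18 h with the replicate block (adjusted p = 0.0400) and in edgeR at both times (-0.82, adjusted p = 0.0184, and -0.63, adjusted p = 0.0410).

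The 4 receptors together summed to 22.0 ± 1.0 FPKM (SD, n = 3) without dox, 27.3 ± 2.8 after 18 h and 29.3 ± 1.7 after 24 h. Notch3 supplied 58.0% ± 2.0 of that sum at 0 h and 52.3% ± 0.15 at 24 h, and Notch2 supplied 25.0% ± 1.6 and 31.6% ± 1.3. In both cases the 0 h and 24 h libraries did not overlap. At 18 h the share of Notch3 was 53.9% ± 2.8 and overlapped with 0 h, whereas that of Notch2 was 29.9% ± 0.89 and did not. The share of Notch1 was 14.2% ± 1.8 at 0 h and 14.8% ± 1.0 at 24 h, with overlapping libraries.

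Lfng, the fringe enzyme, became the most abundant of the 10 transcripts. It was at 6.66, 8.38 and 6.44 FPKM in the 0 h libraries, at 20.3, 20.6 and 18.6 at 18 h and at 18.6, 19.8 and 19.1 at 24 h. The libraries with dox lay close together and far above the 0 h libraries. Lfng was 2.77-fold higher at 18 h (log2 fold-change 1.46, SE 0.097, adjusted p = 0.000134) and 2.68-fold higher at 24 h (1.42, SE 0.097, adjusted p = 0.000110). In this unblocked limma fit it had the lowest adjusted p of the 10 genes at both times. With the replicate block in limma the adjusted p of Dll3 (9.97e-05 at 18 h and 4.42e-05 at 24 h) was below that of Lfng (0.000116 and 0.000122).

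The other fringe genes did not pass. Mfng was at 2.22 FPKM at 0 h and 2.01 at 24 h (adjusted p = 0.763), and Rfng at 13.1 and 15.9 (adjusted p = 0.205), although with the replicate block Mfng passed as lower at 18 h (adjusted p = 0.00974) and Rfng as higher at 24 h (adjusted p = 0.0283). Lfng made up 31.9% ± 4.9 (SD, n = 3) of the FPKM of the 3 fringe genes without dox, 54.2% ± 2.3 after 18 h and 51.9% ± 4.4 after 24 h. The 0 h libraries did not overlap with the others.

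Between 18 h and 24 h no change was detectable. None of the 10 genes passed at 24 h compared with 18 h, with limma adjusted p between 0.945 and 0.994, when 0.0223% of all genes passed in either direction. The count at an unadjusted p under 0.05 was also 0 in limma, none of the 10 passed in edgeR, and none of the 9 with an adjusted p passed in DESeq2, which gave none for Dll4. The 95% interval of the log2 difference ran from -0.18 to 0.55 for Dll1, from -0.18 to 0.62 for Dll3, from -0.33 to 0.94 for Dll4 and from -0.27 to 0.17 for Lfng, so a further rise of the Delta-like ligands by up to about these upper bounds remained within the error.

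The groups at 18 h and 24 h did not overlap for 1 of the 10 genes, Notch1, compared with 12.9% of all genes tested. Within replicate numbers Dll3 was higher at 24 h by ratios of 1.22, 1.16 and 1.13, Notch2 by 1.12, 1.14 and 1.16, Dll1 by 1.33, 1.08 and 1.03 and Notch1 by 1.08, 1.03 and 1.07. These 4 genes were higher in all 3 pairs and Jag1 was lower in all 3, compared with 21.7% and 20.2% of all genes tested. With the replicate block Dll3 and Notch2 had an unadjusted p under 0.05 in limma and in edgeR, and neither passed after adjustment (limma adjusted p = 0.331 and 0.249, edgeR 0.183 and 0.0801).

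The order of the levels changed with time. At 0 h it ran from Jag2 (16.0 FPKM) through Notch3 (12.8), Lfng (7.16), Notch2 (5.52), Jag1 (3.75), Notch1 (3.12), Dll3 (2.52), Dll1 (1.10) and Notch4 (0.611) to Dll4 (0.0741), and of these neighbours Jag1 and Notch1, and Notch1 and Dll3, overlapped in their libraries. At 24 h it ran from Lfng (19.2) through Notch3 (15.3), Jag2 (12.7), Dll3 (9.99), Notch2 (9.28), Notch1 (4.31), Dll1 (3.85), Jag1 (3.72) and Notch4 (0.396) to Dll4 (0.322). There Dll3 overlapped with Notch2, Dll1 with both Notch1 and Jag1, and Notch4 with Dll4. Lfng had thus moved from rank 3 to rank 1, and Dll3 from rank 7 to rank 4. The place of Jag2, and ranks set against it, rest on the length behind its FPKM. In 0 h replicate 1 Jag2 had 1586 reads and 16.4 FPKM, and Notch3 had 2384 reads and 12.4 FPKM. Merged exons held 6965 bases in Jag2 and 8089 in Notch3, so per base of these exons Jag2 lay below Notch3 in that library.

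Across the 9 libraries, which share 3 time points, Dll1 and Dll3 followed each other closely on the log2(FPKM+0.1) scale (Pearson r 0.981), as did Dll1 and Lfng (0.9745) and Dll1 and Dll4 (0.954). Jag2 ran opposite to Lfng (-0.965) and to Dll1 (-0.950), and Jag1 followed none of the upregulated genes (0.0277 with Dll3 and 0.168 with Lfng). Among the 11892 other genes with a mean of at least 1 FPKM (11893 for Dll4, which is below that level) the patterns most like that of Dll1 were those of Hand1, Trp53i11, Cntn2, Gadd45g and Tns1 (r 0.987 to 0.993). For Dll3 they were Cdh3, Ldhb, Trp53i11, Sesn3 and Pik3r1 (0.983 to 0.991), for Dll4 Slco4c1, Tmem2, Parp12, Eif2ak3 and Rnf122 (0.961 to 0.982), and for Lfng Id3, Frmd6, Id1, Cldn5 and Plcxd1 (0.992 to 0.994). These values describe 3 groups of 3 libraries and share the libraries' depth.

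The other genes of the pathway were read as 6 lists with 51 genes tested, of which 4 rose and 4 fell at 18 h (15.7% in all, compared with 7.98% of all genes tested) and 6 rose and 1 fell at 24 h (13.7%, compared with 11.6%). In the blocked fit 10 rose and 7 fell at 18 h and 14 rose and 5 fell at 24 h, beside the blocked shares of all genes of 10.8% and 10.7%, and 13.6% and 12.5%. Of 9 genes for the pulling of ligands into the sending cell and for non-canonical ligands, 1 rose at each time, Epn2, an endocytic adaptor (17.6 FPKM without dox, 24.5 after 18 h and 23.9 after 24 h, adjusted p = 0.00397 and 0.00433), and none fell. The median log2 fold-change of this list was -0.22 at 18 h and -0.13 at 24 h. Mib1, the ubiquitin ligase that acts on Delta ligands, was at 15.3, 16.6 and 18.0 FPKM and passed at 24 h only with the replicate block (adjusted p = 0.142 without it and 0.00827 with it). Of 5 genes for receptor glycosylation 1 fell at 18 h, Poglut1, which adds glucose to the receptor (19.6 to 16.7 FPKM, adjusted p = 0.0487), and none passed at 24 h. With the block 1 gene of the first list fell at 18 h and 2 rose at 24 h, and of the glycosylation list 1 rose and 2 fell at 18 h and 2 rose and 1 fell at 24 h.

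Of 10 genes for receptor proteolysis none passed at 18 h and 1 rose at 24 h. It was Adam10, the protease that makes the ligand-dependent cut (5.91 to 7.87 FPKM, adjusted p = 0.0476). With the replicate block 1 rose at 18 h and 2 at 24 h. Of 8 genes for receptor trafficking and turnover, Numbl, related to the Notch antagonist Numb, rose at 18 h (3.55 to 4.71 FPKM, adjusted p = 0.0402) and 24 h (5.04, adjusted p = 0.0149). The Deltex genes of this list moved in both directions, as Dtx3 fell at 18 h (22.2 to 18.4 FPKM, adjusted p = 0.0404), and Dtx3l (5.64 to 8.62 FPKM, adjusted p = 0.0189) and Dtx4 (4.71 to 6.18, adjusted p = 0.0412) rose at 24 h. In all, 1 rose and 1 fell at 18 h and 3 rose at 24 h, and with the block 4 rose and 1 fell at 18 h and 5 rose at 24 h.

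Of 12 genes of the nuclear complex and its co-repressors 1 fell at each time, the co-regulator Snw1 (70.6 FPKM without dox, 59.4 after 18 h and 59.5 after 24 h, adjusted p = 0.0442 and 0.0394), and none rose. With the block 2 fell at 18 h and 3 at 24 h, among them Rbpj at both times (9.33 FPKM at 0 h and 8.31 at 24 h, blocked adjusted p = 0.0374 and 0.0483). The median log2 fold-change was -0.0092 at 18 h and -0.014 at 24 h, close to the -0.0030 and 0.0040 over all genes. At the same times it was 0.13 and 0.15 for receptor glycosylation and 0.091 and 0.13 for proteolysis. For trafficking and turnover it was 0.26 and 0.31, and for target and feedback genes 0.36 and 0.40.

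**Figure D5:**
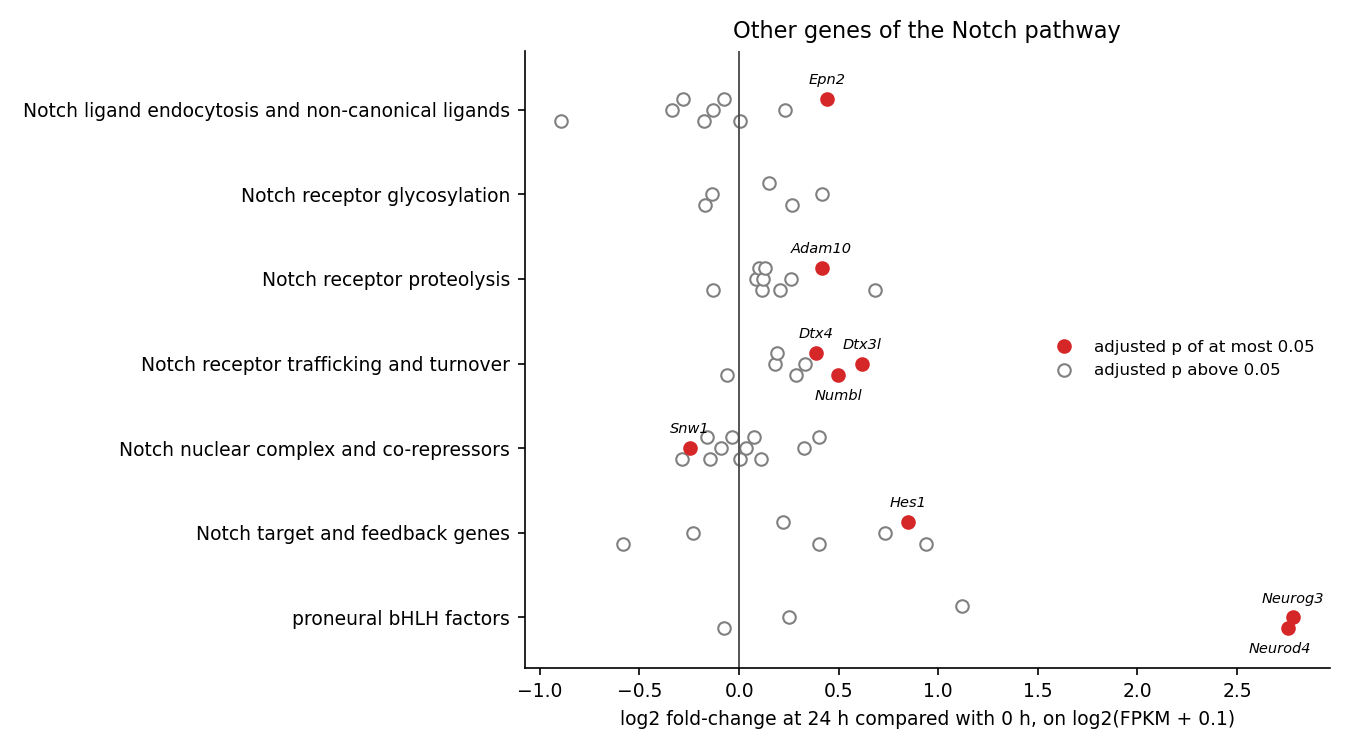
Log2 fold-change at 24 h compared with 0 h, on log2(FPKM+0.1), of the other genes of the Notch pathway, with 1 row per list and 1 point per gene tested. Red points are named and have an adjusted p of 0.05 or less; in all lists but the last they lie between Snw1 (-0.25) and Hes1 (0.85), and the proneural factors Neurog3 and Neurod4 lie at 2.78 and 2.75.

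Among 7 tested target and feedback genes of Notch, Hes1, a repressor that Notch switches on, was at 5.17, 5.44 and 5.17 FPKM in the 0 h libraries, at 7.13, 8.27 and 8.38 at 18 h and at 9.43, 8.85 and 10.4 at 24 h. It rose at both times (log2 fold-change 0.58, adjusted p = 0.00679, and 0.85, adjusted p = 0.00104). Hey2, a related repressor, rose at 18 h (0.227 to 0.704 FPKM, adjusted p = 0.0239) and was at 0.507 FPKM at 24 h (adjusted p = 0.0622). It held only 7, 18 and 15 reads in the 0 h libraries. Dtx1, itself a Notch target, fell at 18 h (2.99 to 1.76 FPKM, adjusted p = 0.0408) and was at 1.97 at 24 h (adjusted p = 0.0674). In total 2 rose and 1 fell at 18 h and 1 rose at 24 h, and with the replicate block 3 rose and 1 fell at both times, with Hey2 and Dtx1 passing at 24 h as well (blocked adjusted p = 0.0363 and 0.00246) and Nrarp, a feedback inhibitor, added (1.88 FPKM at 0 h and 2.49 at 24 h, blocked adjusted p = 0.0493 at 18 h and 0.0293 at 24 h). Hes5, Hes7 and Hey1 did not pass at either time, with or without the block (unblocked limma adjusted p = 0.305, 0.667 and 0.564 at 24 h). Heyl, the eighth gene of this list, was under the minimum level.

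Of 5 tested proneural bHLH factors, which are E2A partners and known to switch on Delta-like genes, Neurog3 rose at both times (0.288 to 1.57 and 2.49 FPKM, adjusted p = 0.00271 and 0.000605) and Neurod4 at 24 h (0.0483 to 1.02 FPKM, adjusted p = 0.00830). Neurod4 reached the minimum level for testing only through the libraries with dox. Neurog2, which activates Dll1 in neural progenitors, was under the minimum level and at no more than 0.0541 FPKM in any library.

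Markers of other cell types were read beside these results. Of 6 tested trophectoderm markers 4 rose at both times (Cdx2, Hand1, Krt8 and Tfap2a), and the summed level of the list was 165 to 193 FPKM at 0 h, 404 to 486 at 18 h and 364 to 494 at 24 h, nearly all of it Krt8. Of 6 tested endothelial markers Cldn5 rose and Esam fell at both times, the sum was 4.36 to 8.02 FPKM at 0 h, 10.3 to 17.2 at 18 h and 9.31 to 14.2 at 24 h, and Emcn was listed at 0 in every library while Cdh5 was at no more than 0.187. The higher sum was that of Cldn5 (mean 0.291 FPKM without dox, 8.47 after 18 h and 7.28 after 24 h), and the median log2 fold-change of the endothelial list was -0.27 at 18 h and -0.25 at 24 h. Of 6 tested neural progenitor markers 1 rose at 18 h and 2 at 24 h (Foxd4, joined by Sox1), with sums of 32.6 to 48.5 FPKM at 0 h, 48.0 to 65.5 at 18 h and 43.5 to 61.9 at 24 h, nearly all of it Nes, which did not pass without the block (36.04, 51.2 and 47.1 FPKM, adjusted p = 0.165 at 18 h and 0.2696 at 24 h). Of 9 ESC markers Fgf4 fell at both times and Pou5f1 at 24 h, Nanog rose at 24 h, and the sum was 1187 to 1855 FPKM at 0 h, 976 to 1564 at 18 h and 936 to 1544 at 24 h, most of it Dppa5a and Pou5f1. None of the tested primitive endoderm or mesendoderm markers passed without the block, and of 5 tested fibroblast markers Pdgfrb rose at 24 h. With the replicate block 3 neural markers rose at each time, 2 ESC markers rose and 4 fell at 18 h and 2 rose and 3 fell at 24 h, and the endothelial list gained 1 gene that fell at each time. Of the mesendoderm markers T then fell at 18 h and 24 h (blocked adjusted p = 0.0496 and 0.00713) and Gsc rose at 24 h (0.0416), and of the fibroblast markers Pdgfrb rose at 18 h also (0.0194) and Dcn fell at 24 h (0.0389). Foxd4 (mean 0.0237 FPKM at 0 h) and Gsc (0.0110) reached the minimum level for testing only through the libraries with dox. The part of the cell type markers in the changes of Dll1, Dll3, Dll4 and Lfng was not tested.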

How the data were processed

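The authors made stranded polyadenylated libraries (TruSeq, HiSeq4000), trimmed reads with cutadapt 1.9 per the submitters' processing notes and aligned them with STAR 2.5.2b to GRCm38. They deposited FPKM values and a filtered table whose per-library signal is a read count divided by an effective library size, beside mean CPM, log2 fold-change, p and FDR of their edgeR 3.16.5 comparisons, which were not read. The Ensembl release and the handling of strand and multimapped reads are not given in the sources used here.

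All 9 libraries were fitted in limma 3.58.1 (lmFit, eBayes with trend, no block) on log2(FPKM+0.1) for the 17951 genes whose mean FPKM reached 0.1. Whole reads were recovered from the deposited signal (100% of 19210 values whole within 0.02), and edgeR 4.0.16 on them called 360 genes upregulated and 191 downregulated at 18 h, and 501 and 216 at 24 h. An exact permutation test of 3 against 3 cannot go below 0.1 and was not used. The fits were tested on simulated data.

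Times come from the titles, the treatment entries and the study's methods, whereas the treatment protocol of the labels gives other times. Replicate numbers in the titles pair libraries: deviations from group means correlated at 0.211 to 0.548 in all 9 same-numbered pairs and at -0.399 to 0.110 in the other 18 (11893 genes). No pair of replicates agreed within sampling noise (chi-square over degrees of freedom 5.39 to 16.4).

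The 10 genes and all lists were chosen with earlier results of these data known. Genes named are the 10, list genes with an adjusted p of at most 0.05 (up to 4 per list), the 5 genes most correlated with each upregulated one, overlapping genes, and a few others picked after their values were seen (Mib1, Mfng, Rfng, Rbpj, Nrarp, Hes5, Hes7, Hey1, Neurog2, marker genes). Motifs and pair ratios were described, not tested.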

Additional observations from a re-analysis of the deposited data

How the results depend on the processing

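Dll1, Dll3 and Lfng at both times and Notch2 at 24 h kept their direction and call under all alternatives that gave them a value, which were pseudocounts of 1 and 0.01, median centring, quantile normalization, no filter on low genes or a minimum mean of 1 FPKM, a fit of only the time points compared, the replicate block, each library left out, and edgeR and DESeq2 on recovered reads. With no minimum fold-change 1 of the 10 genes counted as downregulated at 18 h and 1 at 24 h (Jag2). Leaving out 1 library turned the sign of Jag1 at 18 h (-0.030 to 0.14) and 24 h (-0.10 to 0.039) compared with 0 h, and of Jag1 (-0.16 to 0.014) and Notch3 (-0.066 to 0.15) at 24 h compared with 18 h. Dll4 and Notch4 were not tested at a mean FPKM of at least 1. Dll4 had only 5 to 8 reads at 0 h, and the part of depth in its calls was not tested.

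Beyond the 4 passes gained with the replicate block at 18 h and 24 h that the report gives (Dll4, Notch1 and Notch4 at 18 h, Notch3 at 24 h), the block changed no other call of the 10 genes in limma. In edgeR the block added Notch3 at 18 h (adjusted p = 0.176 without it and 0.0252 with it) and at 24 h (0.0897 and 0.00550). Over all genes limma with the block called 307 upregulated and 199 downregulated at 18 h and 420 and 210 at 24 h. Without the block limma called 239 and 130, and 371 and 150. Median centring moved the split of genes that passed from 766 higher and 667 lower to 623 and 841 at 18 h, and from 1171 and 917 to 839 and 1598 at 24 h, and of the 10 genes 4 rose and 1 fell at 18 h and 6 rose and 1 fell at 24 h under it.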
